A study of Mus musculus with 4 samples.

Results

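The genes described here are 29 genes of cholesterol synthesis, sterol transport and the control of both by the SREBP transcription factors, taken by symbol from the 36445 genes of an RNA sequencing table. They were chosen by function, with earlier results of these data known: 20 enzymes in pathway order, 5 regulators and 4 transport proteins. The cells are MC38, a mouse colon cancer line. 2 libraries came from cells given 5-fluorouracil (5-FU, a chemotherapy drug that interferes with thymidine supply and with RNA) at 1 mM for 24 h, and 2 came from cells given PBS for 24 h. Both groups grew in DMEM with fetal bovine serum, which brings lipoprotein cholesterol, and with antibiotics and glutamine. The labels give no genotype and do not say whether the libraries of a group came from separate cultures, so each p-value reflects the spread between the libraries at hand and that spread may be technical.

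Animal cells build cholesterol from acetyl-CoA through mevalonate, farnesyl pyrophosphate, squalene and lanosterol, and the same early steps supply the lipid anchors of small GTPases. When sterol in the endoplasmic reticulum is low, SCAP carries SREBP proteins to the Golgi for cleavage, and the released factor switches on most enzymes of the route. When sterol is plentiful, INSIG proteins hold SCAP back. Dividing tumour cells draw on this route for new membrane.

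Values are FPKM, read counts scaled by transcript length and library depth, a scale per length on which levels of different genes can be set side by side. Depth estimated from the table was 20.6 to 20.8 M reads in the 5-FU libraries and 41.3 to 41.6 M in the PBS libraries. The PBS libraries lay further apart (median absolute gap 0.271 log2 over tested genes) than the 5-FU libraries (0.0729 log2). The labels call the cells colon cancer, but markers of colon epithelium were near absent: all 8 (Cdx2, Cdh1, Epcam, Krt8, Krt18, Krt20, Vil1 and Lgals4) stayed under 1 FPKM in every library, with summed levels of 1.99 and 2.32 FPKM in 5-FU and 0.63 and 1.06 FPKM in PBS. All 6 mesenchymal genes were detected, and Vim alone reached 1069 and 1036 FPKM in 5-FU and 973 and 890 FPKM in PBS. Fn1 had 226.7 and 218.3 FPKM in 5-FU and 389.2 and 588.0 FPKM in PBS. Zeb1 and Col1a1 stood near 1 FPKM, at 0.911 and 0.796 FPKM in PBS replicate 1 and above 1 FPKM in the other libraries. Of 4 leukocyte markers, Cd68 was present and the other three stayed under 1 FPKM in every library. Coordinates are those of GENCODE M21 on GRCm38.

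Sterol genes were mostly lower after 5-FU. Of the 29 members, 27 reached the level needed for testing (1 FPKM in at least 2 of 4 libraries), and none of these fell below 4.45 FPKM in any library. 16 of the 27 were lower in 5-FU, 2 were higher and 9 did not pass (limma on log2(FPKM + 1), two-sided, Benjamini-Hochberg adjusted p under 0.05 over all 11644 tested genes). The lower calls make up 59.3% of the tested members, where 31.2% of all tested genes were lower. The higher calls make up 7.41%, where 22.1% of all tested genes were higher. The median log2 difference, 5-FU minus PBS, was -0.63 over the members and -0.097 over all tested genes. Of the 16, 9 were lower by at least 1 log2, a size of fall called in 15.7% of all tested genes. In 18 members both 5-FU libraries lay below both PBS libraries, in 4 they lay above, and in 5 the groups overlapped, where 45.1% and 35.9% of all tested genes lay wholly below and wholly above. In bulk RNA, fewer cells that express a gene and less of its RNA per cell cannot be told apart.

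**Figure D1:**
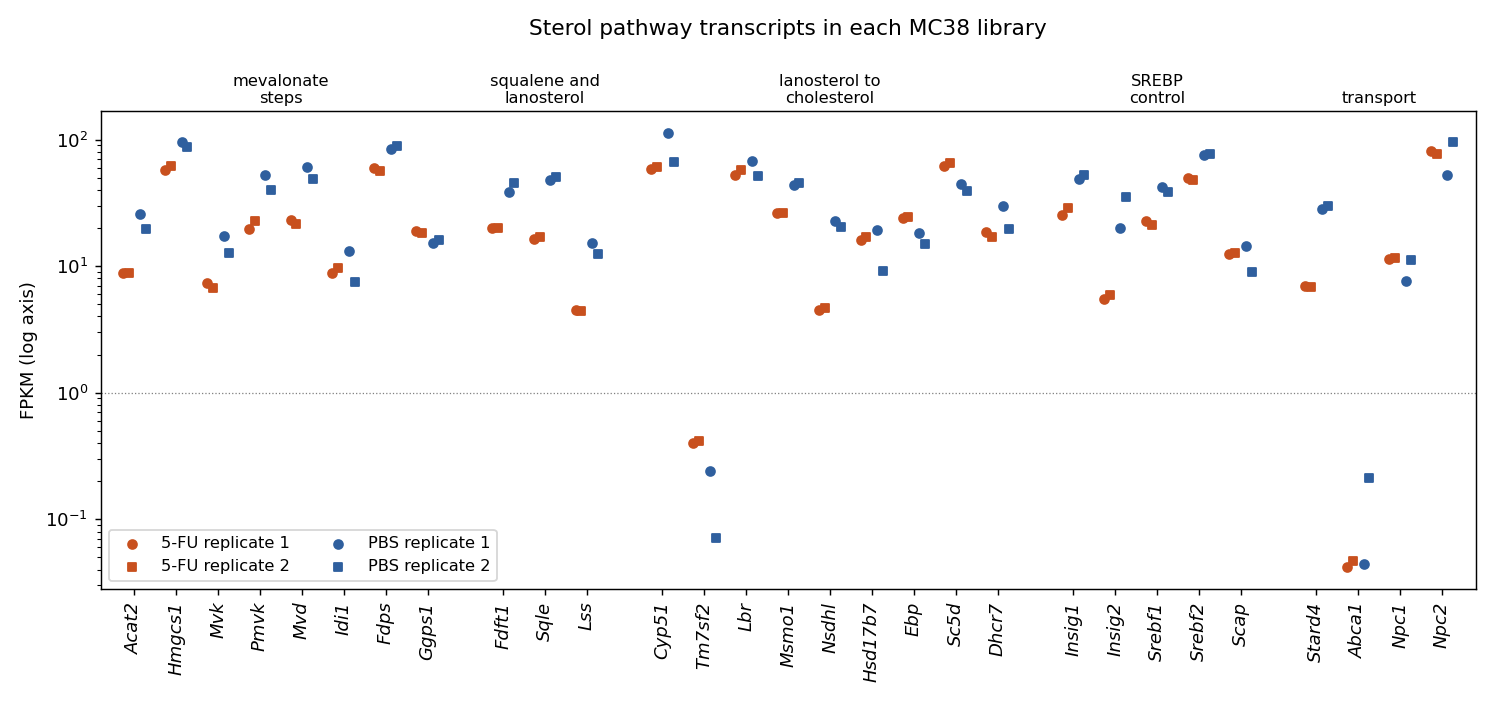
FPKM on a log axis of each of the 29 genes in each library, in pathway order, with 5-FU points left of PBS points and 1 FPKM as a dotted line. Sqle, Nsdhl and Stard4 show both 5-FU points well below both PBS points, Sc5d and Ebp show them above, and Tm7sf2 and Abca1 stay under 1 FPKM throughout.

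These counts depend on which library is kept. Without 5-FU replicate 1 the members held 2 lower and 0 higher calls, and without 5-FU replicate 2 they held 3 and 0. The error then rests on the more distant PBS pair, and over all tested genes 2.04% were lower and 2.22% higher without 5-FU replicate 1, and 2.57% and 2.52% without 5-FU replicate 2. Without PBS replicate 1 there were 17 lower and 6 higher members, where 42.7% and 37.7% of all tested genes were lower and higher. Without PBS replicate 2 there were 21 and 5, where 45.1% and 32.8% of all tested genes were. With 1 PBS library left, the error rests on the close 5-FU pair and the lone PBS library is assumed to vary as little, so a p given below for a fit without a PBS library holds no spread between PBS libraries. Nsdhl and Stard4 kept their lower calls in all 15 alternative settings, these 4 included. With no filter on low values, 9 members stayed lower (Fdps, Sqle, Lss, Msmo1, Nsdhl, Insig1, Srebf1, Srebf2 and Stard4) and 0 higher, where 4.31% and 3.3% of all 36445 genes were lower and higher. At an unadjusted limma p under 0.05 with the filter, 16 members were lower and 2 higher, where 34.8% and 25.9% of all tested genes were.

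Promoter sequence shows which known elements sit near the start of these genes. RefSeq start sites on GRCm38.p6 were available for 24 of the 29 members, and the 250 bases before each start were searched on both strands. Sqle, Fdps, Fdft1, Stard4 and Npc1 were not among the 24. The CCAAT box, bound by NF-Y, a partner of SREBP at many sterol promoters, occurred in 21 of the 24 (87.5%), against 41.5% of the 8537 tested genes with a RefSeq start. GGGCGG, bound by Sp1, occurred in 22 of the 24 (91.7%, against 66% of the tested genes). CACGTG, the E box, occurred in 6 (25%, against 10.3%). TCACNCCAC, a strict form of the sterol regulatory element to which SREBP binds, was found in Hmgcs1 only (4.17% of the 24, against 1.22% of the tested genes). A match describes the letters and does not show binding, and no match says only that these letters are not in this window.

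The windows shown belong to Hmgcs1, which holds the strict element, to the INSIG pair, which hold back SREBP, and to Nsdhl and Sc5d, late enzymes that moved in opposite directions. Sequences run 5′ to 3′ in the direction of transcription, and capitals mark TCACNCCAC and CCAAT on either strand (CCAAT reads ATTGG on the other strand). Insig1 is printed for 201 bases, up to the start of its GENCODE gene model, and the rest for 250 bases.
Hmgcs1, chr13:119690101-119690350, plus strand: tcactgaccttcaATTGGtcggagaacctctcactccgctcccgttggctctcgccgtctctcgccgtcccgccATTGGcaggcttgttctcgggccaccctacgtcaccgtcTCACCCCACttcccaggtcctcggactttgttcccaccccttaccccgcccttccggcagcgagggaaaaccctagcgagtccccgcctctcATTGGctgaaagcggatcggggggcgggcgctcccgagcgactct
Insig1, chr5:28071162-28071362, plus strand: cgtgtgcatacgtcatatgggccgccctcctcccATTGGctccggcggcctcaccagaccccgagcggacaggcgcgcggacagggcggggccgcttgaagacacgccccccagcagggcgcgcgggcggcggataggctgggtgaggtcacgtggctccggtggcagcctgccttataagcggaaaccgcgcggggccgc
Insig2, chr1:121332590-121332839, minus strand: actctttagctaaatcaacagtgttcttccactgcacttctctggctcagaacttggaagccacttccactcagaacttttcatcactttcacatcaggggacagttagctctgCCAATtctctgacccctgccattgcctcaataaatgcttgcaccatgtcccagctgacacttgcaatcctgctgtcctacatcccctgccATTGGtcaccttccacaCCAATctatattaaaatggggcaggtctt
Nsdhl, chrX:72918271-72918520, plus strand: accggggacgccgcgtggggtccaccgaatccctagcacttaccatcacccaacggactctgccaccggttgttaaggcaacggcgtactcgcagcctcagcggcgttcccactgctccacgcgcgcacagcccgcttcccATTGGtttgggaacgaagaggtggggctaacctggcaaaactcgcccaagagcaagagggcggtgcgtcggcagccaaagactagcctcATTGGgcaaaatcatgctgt
Sc5d, chr9:42264301-42264550, minus strand: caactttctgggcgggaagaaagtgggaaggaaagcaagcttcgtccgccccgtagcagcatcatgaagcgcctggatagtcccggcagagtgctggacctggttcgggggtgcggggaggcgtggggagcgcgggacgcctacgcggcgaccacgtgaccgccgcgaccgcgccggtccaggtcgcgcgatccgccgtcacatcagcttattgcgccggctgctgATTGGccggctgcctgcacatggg
In the Hmgcs1 window the sterol element begins 137 bases before the start, with CCAAT boxes at 237, 176 and 45 bases before it. The Insig1 window holds 1 CCAAT box at 216 bases and the Insig2 window shown, 1 of 3 RefSeq start windows of that gene, holds 3, at 136, 46 and 29 bases; the other two windows hold none. Nsdhl has CCAAT boxes at 109 and 20 bases, and Sc5d has 1 at 24 bases, so the box is present in a gene that fell and in one that rose.

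The early enzymes, which turn acetyl-CoA into farnesyl and geranylgeranyl pyrophosphate, were lower in 6 of 8 cases (75%), and 0 were higher (limma). Of all tested genes, 31.2% were lower and 22.1% higher. At an unadjusted limma p under 0.05 the counts were also 6 and 0, against 34.8% and 25.9% of all tested genes. Acat2, the cytosolic thiolase that joins acetyl-CoA units (chromosome 17, 12942890 to 12960747), measured 8.87 and 8.77 FPKM in 5-FU, against 26.01 and 19.7 FPKM in PBS. It was 2.59-fold lower, a log2 difference of -1.27 ± 0.17 (SE; adjusted p = 0.0057). Its paralog Acat3 reached at most 0.653 FPKM in any library.

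Hmgcs1, which makes HMG-CoA, had 57.1 and 62.1 FPKM in 5-FU and 96.2 and 87.5 FPKM in PBS, a 1.54-fold fall (log2 difference -0.62 ± 0.11, adjusted p = 0.012). Mvk, the kinase that phosphorylates mevalonate, had 7.29 and 6.71 FPKM in 5-FU and 17.2 and 12.7 FPKM in PBS (log2 difference -0.98 ± 0.18, adjusted p = 0.012). The next kinase, Pmvk, had 19.7 and 22.8 FPKM in 5-FU and 52.6 and 40.2 FPKM in PBS (log2 difference -1.09 ± 0.17, adjusted p = 0.0086). In Hmgcs1, Mvk and Pmvk both 5-FU values lay under both PBS values, as they did in 45.1% of all tested genes. Mvd, which decarboxylates the product to isopentenyl pyrophosphate, had 23.0 and 21.5 FPKM in 5-FU and 60.7 and 48.8 FPKM in PBS (2.46-fold lower, adjusted p = 0.0047). Fdps, which builds farnesyl pyrophosphate at the branch between sterols and prenyl groups, had 60.1 and 56.5 FPKM in 5-FU and 84.1 and 88.9 FPKM in PBS (1.48-fold lower, adjusted p = 0.013). The 6 calls were each lost without either 5-FU library (adjusted p from 0.061 to 0.189).

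Idi1 and Ggps1 did not pass. Idi1, the isomerase that supplies dimethylallyl pyrophosphate, had 8.78 and 9.62 FPKM in 5-FU, inside the span of its PBS values of 13.2 and 7.45 FPKM (log2 difference -0.10, 95% interval -0.83 to 0.62, adjusted p = 0.77). Its sign followed the PBS library kept: 0.27 without PBS replicate 1 (adjusted p = 0.031) and -0.48 without PBS replicate 2 (adjusted p = 0.0032). Ggps1 makes geranylgeranyl pyrophosphate, which leads away from sterols to protein prenylation. It had 18.8 and 18.4 FPKM in 5-FU and 15.1 and 16.1 FPKM in PBS (log2 difference 0.24, 95% interval -0.05 to 0.53, adjusted p = 0.13). As in 35.9% of all tested genes, both 5-FU values lay above both PBS values of Ggps1. Its exons overlap those of Arid4b on the opposite strand, which measured 1.88 and 1.76 FPKM in 5-FU and 4.07 and 5.26 FPKM in PBS. Relative to Fdft1, the enzyme that commits farnesyl pyrophosphate to sterols, Ggps1 stood at 0.938 and 0.913 in 5-FU libraries, against 0.394 and 0.353 in PBS libraries, as a ratio of FPKM.

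All 3 enzymes that lead from farnesyl pyrophosphate to lanosterol were lower, where 31.2% of all tested genes were. Fdft1, squalene synthase (chromosome 14, 63145150 to 63179578), had 20.1 and 20.1 FPKM in 5-FU and 38.4 and 45.6 FPKM in PBS, a 2.09-fold fall (log2 difference -1.02 ± 0.13, adjusted p = 0.0053). Its exons overlap those of Ctsb on the opposite strand (149.9 and 141.8 FPKM in 5-FU, 95.2 and 170.6 FPKM in PBS), and with no strand setting stated their reads cannot be told apart. Sqle, which adds oxygen to squalene (chromosome 15, 59315077 to 59331192), had 16.4 and 16.9 FPKM in 5-FU and 48.0 and 50.6 FPKM in PBS. Its libraries agreed closely within each group, and the fall was 2.96-fold (log2 difference -1.51 ± 0.11, adjusted p = 0.0027). Lss, which closes the ring system to lanosterol (chromosome 10, 76531588 to 76557138), had 4.49 and 4.45 FPKM in 5-FU and 15.2 and 12.5 FPKM in PBS, a 3.10-fold fall (log2 difference -1.43 ± 0.15, adjusted p = 0.0039). Without 5-FU replicate 1 or 2 the calls of Fdft1 and Lss were lost and that of Sqle only without replicate 1 (adjusted p from 0.0501 to 0.0777).

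Below lanosterol the enzymes did not move together: of 8 tested, 2 were lower, 2 were higher and 4 did not pass. Each share was 25%, near the 31.2% lower and 22.1% higher of all tested genes. Demethylation at carbon C4 of the sterol ring needs Msmo1, Nsdhl and Hsd17b7 in turn, and these 3 had different results. Nsdhl, the decarboxylating dehydrogenase of the trio (chromosome X, 72918557 to 72958514), had 4.53 and 4.64 FPKM in 5-FU and 22.7 and 20.4 FPKM in PBS. Its fall was 4.70-fold, the deepest on the log2 scale among the enzymes (-2.01 ± 0.13, adjusted p = 0.0027). Msmo1, the oxygenase that precedes it, had 26.3 and 26.3 FPKM in 5-FU and 43.6 and 45.0 FPKM in PBS, a 1.68-fold fall (log2 difference -0.73 ± 0.10, adjusted p = 0.0063). Hsd17b7, the reductase that follows, had 16.0 and 16.9 FPKM in 5-FU, between its PBS values of 19.3 and 9.18 FPKM (log2 difference 0.28, 95% interval -0.63 to 1.19, adjusted p = 0.52). Its PBS libraries stood 0.996 log2 apart, and its difference was 0.78 without PBS replicate 1 (adjusted p = 0.00021) and -0.22 without PBS replicate 2 (adjusted p = 0.033).

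Ebp and Sc5d, which act one after the other on the double bonds of the sterol ring, were the 2 members that rose. Ebp, the sterol isomerase (chromosome X, 8185329 to 8193512), had 24.2 and 24.3 FPKM in 5-FU and 18.1 and 14.8 FPKM in PBS, a 1.47-fold rise (log2 difference 0.54 ± 0.14, adjusted p = 0.031). Sc5d, the desaturase (chromosome 9, 42251595 to 42264256), had 61.7 and 65.3 FPKM in 5-FU and 44.7 and 39.6 FPKM in PBS, a 1.51-fold rise (log2 difference 0.58 ± 0.12, adjusted p = 0.015). Both 5-FU values lay above both PBS values in each gene, as they did in 35.9% of all tested genes. The Ebp call was lost when mitochondrial and ribosomal protein genes were removed (adjusted p = 0.063), and both calls were lost with no filter on low values (adjusted p = 0.146 for Ebp and 0.0792 for Sc5d). Without either 5-FU library the calls of Msmo1, Ebp and Sc5d were lost (adjusted p from 0.111 to 0.248). As a ratio of FPKM within a library, Sc5d stood at 13.6 and 14.1 times Nsdhl in 5-FU and at 1.97 and 1.94 times Nsdhl in PBS. These are the enzymes with the highest and the lowest log2 difference, so the shift in their ratio follows from that choice. It was not tested.

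Cyp51 and Dhcr7 had both 5-FU values under both PBS values, as 45.1% of all tested genes had, but did not pass. Cyp51, the lanosterol demethylase, had 58.7 and 60.8 FPKM in 5-FU and 113.3 and 66.5 FPKM in PBS (log2 difference -0.53, 95% interval -1.24 to 0.17, adjusted p = 0.156). Dhcr7, a late reductase, had 18.5 and 17.1 FPKM in 5-FU and 30.1 and 19.6 FPKM in PBS (log2 difference -0.43, 95% interval -1.02 to 0.16, adjusted p = 0.165). In both genes PBS replicate 1 was the high library, and without PBS replicate 2 they were called lower (log2 difference -0.91, adjusted p = 8.07e-05 for Cyp51; -0.73, 0.000355 for Dhcr7). Without PBS replicate 1 the differences shrank to -0.15 for Cyp51 (adjusted p = 0.0608) and -0.14 for Dhcr7 (adjusted p = 0.152). Cyp51 shares exon sequence with Akap9 on the opposite strand, which measured 4.87 and 3.99 FPKM in 5-FU and 7.44 and 8.91 FPKM in PBS.

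Tm7sf2 and Lbr are alternative reductases for the same step, and Lbr is also the lamin B receptor of the nuclear envelope. Lbr had 52.4 and 57.4 FPKM in 5-FU, within its PBS values of 67.8 and 51.3 FPKM (log2 difference -0.10, 95% interval -0.55 to 0.34, adjusted p = 0.63). Tm7sf2 was too low to test, at 0.399 and 0.416 FPKM in 5-FU and 0.24 and 0.0708 FPKM in PBS, and its exons overlap those of Vps51 on the same strand. In each library Lbr was thus the more abundant of the pair by over 131-fold in FPKM.

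**Figure D2:**
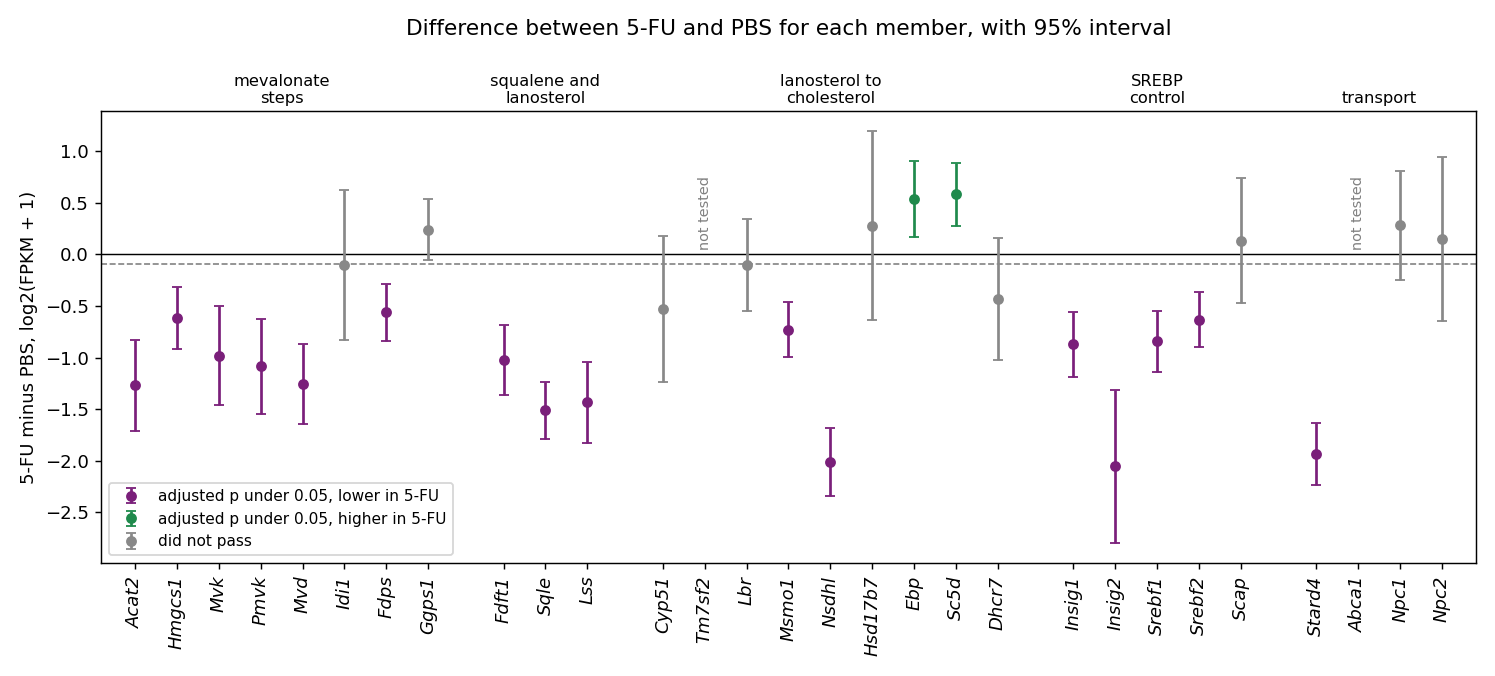
Log2 difference, 5-FU minus PBS, on the log2(FPKM + 1) scale for each tested gene in pathway order, with 95% intervals from limma; the dashed line is the median of all tested genes (-0.097). From Acat2 to Lss 9 of 11 intervals lie below 0, and from Cyp51 to Dhcr7 they lie on both sides.

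Of the 5 regulators, 4 were lower (80%), 0 were higher and Scap did not pass (limma). Among all tested genes, 31.2% were lower and 22.1% higher. At an unadjusted limma p under 0.05 the counts were also 4 and 0, against 34.8% and 25.9% of all tested genes. Srebf2, which encodes the SREBP most tied to cholesterol synthesis (chromosome 15, 82147181 to 82205379), had 49.8 and 48.0 FPKM in 5-FU and 75.8 and 76.7 FPKM in PBS, a 1.56-fold fall (log2 difference -0.63 ± 0.10, adjusted p = 0.0083). Its gene spans 58.2 kb, and with the table's trend of the difference with gene span removed its difference was -0.29 and the call was lost (adjusted p = 0.069). Srebf1, whose product leans towards fatty acid genes (chromosome 11, 60199089 to 60222581), had 22.9 and 21.3 FPKM in 5-FU and 41.8 and 38.8 FPKM in PBS, a 1.83-fold fall (log2 difference -0.84 ± 0.11, adjusted p = 0.0058). Its exons overlap Rai1 on the opposite strand, which measured 0.576 and 0.546 FPKM in 5-FU and 6.94 and 3.86 FPKM in PBS. The FPKM ratio of Srebf1 to Srebf2 was 0.46 and 0.443 in 5-FU and 0.551 and 0.506 in PBS.

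Both INSIG genes fell. Insig1, itself a target of SREBP and so a feedback gene of the route (chromosome 5, 28071363 to 28078662), had 25.6 and 28.98 FPKM in 5-FU and 49.1 and 52.2 FPKM in PBS. It was 1.86-fold lower (log2 difference -0.87 ± 0.12, 95% interval -1.19 to -0.56, adjusted p = 0.0060). Insig2, its paralog (chromosome 1, 121304353 to 121332589), had 5.47 and 5.89 FPKM in 5-FU and 20.2 and 35.2 FPKM in PBS, a 4.88-fold fall (log2 difference -2.05 ± 0.28, 95% interval -2.79 to -1.31, adjusted p = 0.0060). The ratio of Insig2 to Insig1 in FPKM was 0.214 and 0.203 in 5-FU and 0.41 and 0.675 in PBS, so it was lower in both 5-FU libraries than in both PBS libraries. The difference between the paralogs was not tested. Scap, the escort of SREBP, had 12.4 and 12.8 FPKM in 5-FU, between its PBS values of 14.3 and 9.03 FPKM (log2 difference 0.13, 95% interval -0.47 to 0.74, adjusted p = 0.65; 0.44 and adjusted p = 0.0022 without PBS replicate 1, -0.17 and adjusted p = 0.0732 without PBS replicate 2). Without either 5-FU library the 4 regulator calls were lost (adjusted p from 0.0596 to 0.146).

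Among the transport genes, Stard4 was lower and neither Niemann-Pick gene passed. Stard4 encodes a soluble carrier that moves cholesterol between membranes (chromosome 18, 33199355 to 33213862). It had 6.98 and 6.85 FPKM in 5-FU and 28.4 and 30.1 FPKM in PBS, a 4.23-fold fall with narrow spread in both groups (log2 difference -1.93 ± 0.11, adjusted p = 0.0027). Npc1 and Npc2 encode the membrane and soluble proteins that let cholesterol leave lysosomes. Npc1 had 11.4 and 11.6 FPKM in 5-FU and 7.66 and 11.2 FPKM in PBS (log2 difference 0.28, 95% interval -0.25 to 0.81, adjusted p = 0.29; 0.53 and adjusted p = 0.0012 without PBS replicate 2, 0.031 and adjusted p = 0.713 without PBS replicate 1). Opposite-strand genes overlap its exons: Gm15956 measured 5.07 and 5.70 FPKM in 5-FU and 0.819 and 1.15 FPKM in PBS, and Rmc1 measured 4.77 and 4.67 FPKM in 5-FU and 7.77 and 7.52 FPKM in PBS. Npc2 had 80.7 and 76.6 FPKM in 5-FU, between its PBS values of 52.1 and 95.8 FPKM (log2 difference 0.15, 95% interval -0.65 to 0.95, adjusted p = 0.695). Its sign turned with the PBS library left out (-0.28 without PBS replicate 1, adjusted p = 0.0077, and 0.58 without PBS replicate 2, adjusted p = 0.00042). Cd68, a macrophage marker and itself a lysosomal protein, showed the same split of the PBS libraries (18.0 and 16.0 FPKM in 5-FU, 6.29 and 19.3 FPKM in PBS), and its part in the Npc2 values was not tested.

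Abca1, the pump that exports cholesterol, was near silent and not tested. It measured 0.0417 and 0.0468 FPKM in 5-FU, about 9 and 10 reads, and 0.0443 and 0.211 FPKM in PBS, about 19 and 91 reads. PBS replicate 2 alone stood above the other libraries, which lay close together. Star, named here from the marker list of hepatocytes and steroidogenic cells, encodes a relative of Stard4 that carries cholesterol into mitochondria. It had 7.25 and 7.20 FPKM in 5-FU and 1.45 and 0.854 FPKM in PBS, 6.28-fold higher (adjusted p = 0.0034), while Alb, Cyp7a1 and Cyp11a1 of that list stayed under 1 FPKM in every library.

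The members that did not pass were mostly those on which the PBS libraries disagreed. That gap enters the error of the limma fit, so a large gap by itself makes a call less likely. Over the 27 tested members the gap between the PBS libraries had a median of 0.273 log2, near the 0.271 of all tested genes. The median gap between the 5-FU libraries was 0.0673 log2. Of the 19 tested enzymes, 14 were higher in PBS replicate 1 and 5 in PBS replicate 2, and over all tested genes 6669 were higher in PBS replicate 1 and 4941 lower. Summed over the 20 enzymes, the level was 507.3 and 520.9 FPKM in 5-FU and 826.6 and 696.6 FPKM in PBS, or 0.13% and 0.134% of all FPKM in 5-FU and 0.241% and 0.194% in PBS. The median gene span was 17.9 kb for tested members and 20.02 kb for all tested genes. With the trend with gene span removed, 15 members were lower and 2 higher, where 23.9% and 24.6% of all tested genes were.

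**Figure D3:**
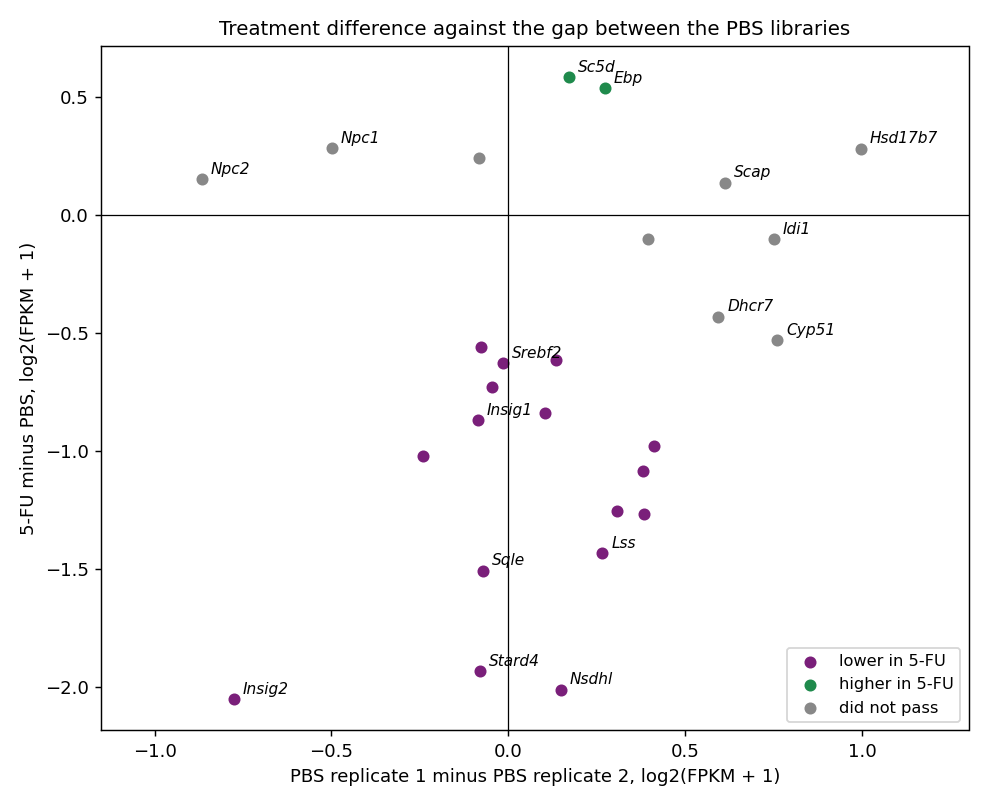
Log2 difference, 5-FU minus PBS, of the 27 tested genes (vertical) against the log2 gap between PBS replicate 1 and PBS replicate 2 (horizontal), both from log2(FPKM + 1). Apart from Ggps1 and Lbr, genes that did not pass lie at large gaps, such as Hsd17b7 (0.996) and Npc2 (-0.87). Stard4, Sqle and Nsdhl lie near 0 on the horizontal axis, and Insig2 passed despite a gap of -0.78. The gap is part of the error of the fit, so passing and the horizontal axis are tied.

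Neighbouring genes of the same biology were read from lists fixed with earlier results of these data known: of 75, 69 were tested, 25 were lower and 7 higher. The lower share of 36.2% is near the 31.2% of all tested genes, and the higher share of 10.1% is under their 22.1%. The median log2 difference was -0.25. With median-ratio scaling the counts were 22 lower and 11 higher, where 27.6% and 27.4% of all tested genes were lower and higher. Which library was kept changed the counts of these neighbouring genes, as it did for the members. Calls were fewer without either 5-FU library and more without either PBS library. The share of all tested genes called moved the same way.

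For SREBP processing, 4 of 10 tested genes were lower (40%) and 1 higher (10%), where 31.2% and 22.1% of all tested genes were. Erlin2, a membrane protein of endoplasmic reticulum-associated degradation, had 8.85 and 8.84 FPKM in 5-FU and 25.7 and 26.04 FPKM in PBS (2.92-fold lower, adjusted p = 0.0028). Rnf145, a sterol-linked ubiquitin ligase, had 4.81 and 4.86 FPKM in 5-FU and 14.0 and 12.7 FPKM in PBS (2.76-fold lower, adjusted p = 0.0037). Mbtps1, the Golgi protease that makes the first cut in SREBP, had 24.0 and 24.9 FPKM in 5-FU and 41.4 and 41.9 FPKM in PBS (1.71-fold lower, adjusted p = 0.0061). The genes of the protease and of both of its substrates, Srebf1 and Srebf2, were thus lower with all 4 libraries. With the trend with gene span removed, the log2 difference of Mbtps1 (50.6 kb) went from -0.75 to -0.45. Mbtps1 and Srebf1 then kept their calls and Srebf2 lost its call. Mbtps2 of the same list had 11.2 and 11.6 FPKM in 5-FU and 13.8 and 16.1 FPKM in PBS and did not pass (limma adjusted p = 0.078). Ufd1, a cofactor of protein extraction from the endoplasmic reticulum, had 20.3 and 20.6 FPKM in 5-FU and 14.6 and 9.30 FPKM in PBS (1.71-fold higher, adjusted p = 0.044; 0.0706 when mitochondrial and ribosomal protein genes were removed).

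Among genes of uptake and intracellular sterol transport, 12 of 24 tested were lower (50%) and 1 higher (4.17%). The shares of all tested genes were 31.2% and 22.1%. Vldlr, a lipoprotein receptor, had 2.68 and 2.72 FPKM in 5-FU and 18.2 and 25.2 FPKM in PBS (8.05-fold lower, log2 difference -2.60 ± 0.19, adjusted p = 0.0027). Lrp1, another receptor of the family, had 1.75 and 1.85 FPKM in 5-FU and 5.998 and 10.4 FPKM in PBS (4.55-fold lower, adjusted p = 0.0082), and the sterol-binding protein gene Osbpl1a fell 4.27-fold. Lamp1, a lysosomal membrane protein, had 429.6 and 448.8 FPKM in 5-FU and 277.2 and 315.7 FPKM in PBS (1.48-fold higher, adjusted p = 0.019; 0.0659 with quantile normalization). The genes of this list were long, with a median span of 40.75 kb, against 20.02 kb for all tested genes. With the trend with gene span removed, log2 differences went from -1.67 to -1.24 for Lrp1 and from -1.44 to -0.80 for Osbpl1a. Vldlr went from -2.60 to -2.39 and Lamp1 from 0.568 to 0.586, and these genes kept their calls.

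In the list for efflux, esterification and oxysterols, 9 of 14 genes were tested, 4 were lower (44.4%) and 1 was higher (11.1%). The shares of all tested genes were 31.2% and 22.1%. Nceh1, a cholesterol ester hydrolase, had 0.293 and 0.305 FPKM in 5-FU and 4.52 and 7.24 FPKM in PBS (19.7-fold lower, log2 difference -2.38 ± 0.23, adjusted p = 0.0036). Soat2, which makes such esters, had 0.411 and 0.219 FPKM in 5-FU and 2.22 and 1.13 FPKM in PBS (adjusted p = 0.025). Soat1, the far more abundant esterifying enzyme of the list, had 34.3 and 35.8 FPKM in 5-FU and 41.2 and 40.9 FPKM in PBS and did not pass (log2 difference -0.22, adjusted p = 0.127). Arl4c, a small GTPase gene known as a target of the sterol receptor LXR, had 0.717 and 0.768 FPKM in 5-FU and 4.97 and 4.85 FPKM in PBS (adjusted p = 0.0027). Mylip, another LXR target, which encodes a ubiquitin ligase for lipoprotein receptors, had 21.2 and 21.1 FPKM in 5-FU and 5.83 and 8.62 FPKM in PBS (2.93-fold higher, adjusted p = 0.0060), opposite to Arl4c.

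Genes that use isoprenoids moved both ways, with 3 of 16 lower (18.75%) and 4 higher (25%). All tested genes did so too, with 31.2% lower and 22.1% higher. Rabggtb, the catalytic beta subunit that prenylates Rab proteins, had 402.9 and 422.5 FPKM in 5-FU and 81.2 and 87.9 FPKM in PBS (4.88-fold higher, log2 difference 2.27 ± 0.11, adjusted p = 0.0027). Small nucleolar RNA genes lie inside its gene model, and their reads cannot be told apart from its own. Its partner Rabggta had 6.21 and 6.27 FPKM in 5-FU and 17.0 and 14.3 FPKM in PBS, 2.50-fold lower (adjusted p = 0.0047). The subunit genes Fntb and Pggt1b of the enzymes that attach farnesyl and geranylgeranyl groups rose 1.63-fold and 1.56-fold, whereas Coq2 (ubiquinone synthesis) and Dolk (dolichol kinase) were 2.37-fold and 2.34-fold lower. Of 10 genes for acetyl-CoA supply and electron donors, 2 were lower (20%) and 0 higher (limma), where 31.2% and 22.1% of all tested genes were. At an unadjusted limma p under 0.05 the counts were 3 and 0, against 34.8% and 25.9% of all tested genes. Acss2, which makes acetyl-CoA from acetate, had 2.82 and 2.76 FPKM in 5-FU and 11.8 and 16.1 FPKM in PBS, and Slc25a1, the mitochondrial citrate carrier, had 24.3 and 22.3 FPKM in 5-FU and 53.9 and 56.8 FPKM in PBS (adjusted p = 0.0034 each). Of the 20 genes named from these lists, 17 lost their call without at least 1 of the 5-FU libraries (adjusted p from 0.0508 to 0.246). With no filter on low values 11 of the 20 lost it (Ufd1, Nceh1, Soat2, Mylip, Lrp1, Osbpl1a, Lamp1, Coq2, Dolk, Fntb and Pggt1b; adjusted p from 0.0539 to 0.266).

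**Figure D4:**
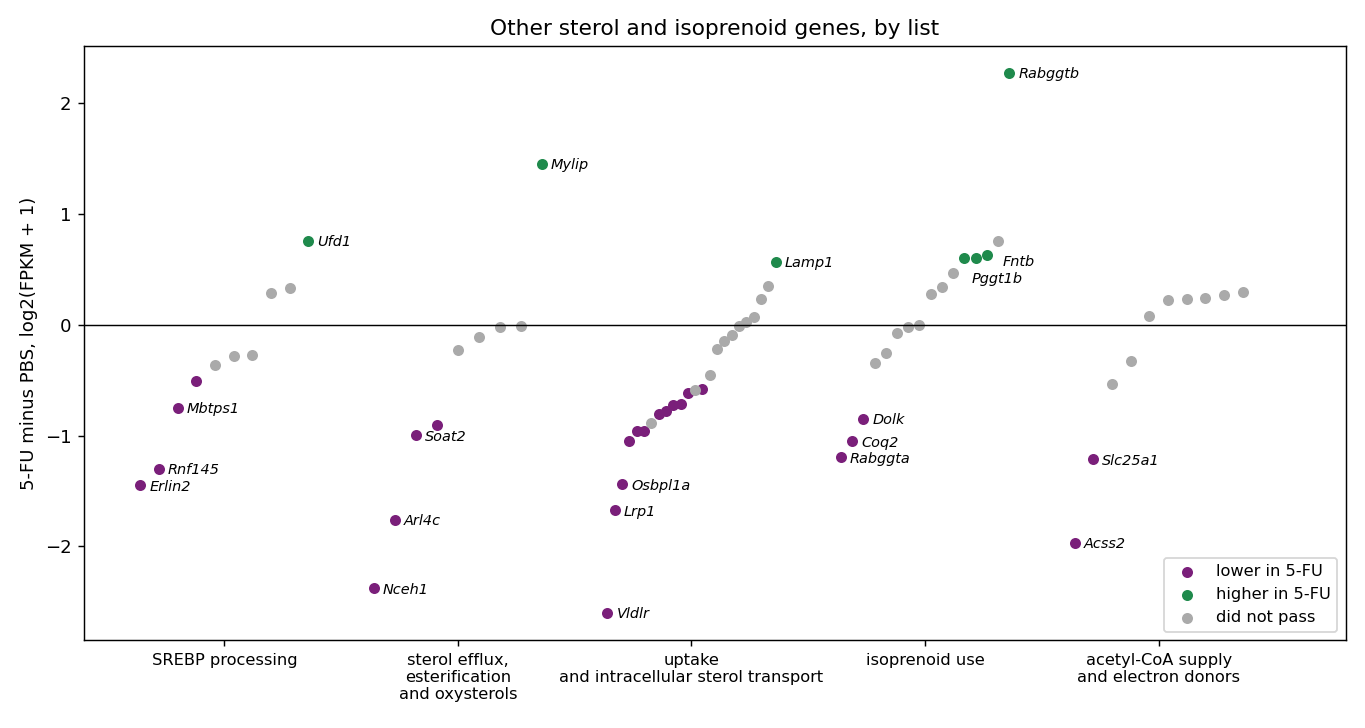
Log2 difference, 5-FU minus PBS, on the log2(FPKM + 1) scale for the 69 tested genes of 5 lists, sorted within each list; purple and green mark genes called lower and higher in 5-FU. Vldlr (-2.60) and Nceh1 (-2.38) are the deepest falls and Rabggtb (2.27) the highest rise.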

How the data were processed

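The authors deposited 1 table of FPKM values for 36445 genes in 4 libraries of polyadenylated RNA, per the labels. STAR 2.4.1a and Picard 2.9.0 are listed, with the build GRCm38 and no roles, per the submitters' processing notes; counting program, annotation and strandedness were not given in the sources used here. FPKM do not show depth, so reads were estimated from the FPKM steps and GENCODE M21 exonic lengths (63.1% to 65.1% of values under 100 reads lay within 0.02 of a whole read). The libraries of the 5-FU pair differed by a mean chi-square of 4.5 per gene (1.57 for genes with few reads) and those of the PBS pair by 218.5 (13.5); each library was counted as 1 sample, as labelled.

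The groups were set against each other on log2(FPKM + 1) by limma 3.58.1 (intensity trend; R 4.3.3), keeping genes that reached 1 FPKM in 2 or more libraries; this scale understates the change of low genes. The fit was tested on simulated data. Folds are ratios of mean FPKM, SE is limma's, and adjusted p of the main fit are two-sided over 11644 genes. Those of an alternative setting are over the genes tested in it, 36445 with no filter and 11460 without mitochondrial and ribosomal protein genes. All members are named. Other genes followed a rule of up to 3 called genes per list and direction. Soat1 and Mbtps2, which did not pass, are named besides and are not among the 20 counted. Members and lists were chosen with earlier results of these data known. 1 gene of the lists is not reported here and enters no list count. Of the members, 12 have exons that overlap another annotated gene; GENCODE M21 supplied coordinates and spans, and RefSeq (GRCm38.p6) the promoter sequences. Alternatives were pseudocounts 0.1 and 0.5, no filter, a mean of at least 5 FPKM, 2 other scalings, removal of mitochondrial and ribosomal protein genes, 2 other error models, a replicate block, subtraction of the gene span trend, and leaving out each library. Same-numbered libraries did not deviate together (correlation -0.0101).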

Additional observations from a re-analysis of the deposited data

How the results depend on the processing

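Over the tested members and 15 alternative settings, 343 values kept direction and side of the threshold, 42 lost the call, 10 gained one and 10 changed sign. The 16 lower and 2 higher calls among members were also found with both pseudocounts, median-ratio scaling, a minimum mean of 5 FPKM, both other error models, quantile normalization and the replicate block; the block gave 16 and 2 members and changed no member's call, with 27 other pathway genes lower and 8 higher. The labels share replicate numbers, but same-numbered libraries did not deviate together, so the numbers were not taken as pairs. With no filter on low values the counts were 9 lower and 0 higher members and 10 lower and 2 higher other pathway genes; 36445 genes were then tested. A mean of at least 5 FPKM left 13 other pathway genes lower, with fewer genes tested. Removing mitochondrial and ribosomal protein genes left 1 member higher. Removing the gene span trend gave 18 other pathway genes lower and 13 higher, where 23.9% and 24.6% of all tested genes were. Median-ratio scaling gave 22 lower and 11 higher, where 27.6% and 27.4% of all tested genes were. The members' median log2 difference was -0.507 with median-ratio scaling, -0.787 with quantile normalization, -0.731 without mitochondrial and ribosomal protein genes and -0.588 without the gene span trend; the median of all tested genes then lay at 0.0131, 0.0211, -0.204 and 0.0272. With 1 library left out, the members' median ran from -0.73 to -0.639, lower members from 2 to 21, higher members from 0 to 6, other pathway genes lower from 2 to 39 and higher from 1 to 17. Sign changes touched members that did not pass: Idi1 (0.00953 with median-ratio scaling, 0.126 with quantile normalization, 0.27 without PBS replicate 1), Lbr (0.0206 with median-ratio scaling, 0.0222 without the span trend, 0.0941 without PBS replicate 1), Npc2 (-0.0295 with quantile normalization, -0.283 without PBS replicate 1), and Hsd17b7 and Scap (-0.219 and -0.171 without PBS replicate 2). Without the other PBS library these genes had -0.48 (Idi1 without PBS replicate 2), -0.3 (Lbr, the same), 0.584 (Npc2, the same), 0.778 (Hsd17b7 without PBS replicate 1) and 0.439 (Scap, the same). The cause was not tested. With 2 libraries a group, and 5-FU libraries sequenced less deeply, a difference that did not pass is not shown to be absent.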
